A study of Mus musculus with 8 samples.

Results

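The 9 genes described here carry out or restrain cGAS-STING signalling and handle its messenger, cGAMP. They were taken by name for these roles and by no rule on their values, but with earlier results of these data known. Each was matched to 1 of the 54532 Ensembl genes in the deposited count files. They are Cgas (the DNA sensor cGAS), Tmem173 (the adaptor STING), Tbk1 and Ikbke (its kinases), Nlrc3 and Nlrx1 (negative regulators), Enpp1 (a cGAMP hydrolase), and Slc19a1 and Lrrc8c (a cGAMP importer and a subunit of a cGAMP-conducting channel). All 9 passed the filter on low counts, among 14591 genes tested.

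Polyadenylated RNA of bone marrow-derived macrophages (BMDMs) was sequenced in 4 groups of 2 libraries. These cells are obtained by culturing marrow for 7 days with L929 cell supernatant, a source of the growth factor M-CSF. Wild-type (WT) BMDMs came from mice with intact Trex1 and received the vehicle DMSO. Trex1-KO BMDMs came from Trex1-/- mice, which lack in every cell the exonuclease that degrades cytosolic DNA, and also received DMSO. Trex1-KO+H151 and Trex1-KO+SN-011 BMDMs came from Trex1-/- mice and received the STING antagonist H151 at 500 nM or the STING antagonist SN-011. Mice were 6 to 8 weeks old when marrow was taken, and incubation lasted 12 h. The labels give no SN-011 dose, and the study's methods name the same concentration as for H151. The sample identifiers of the SN-011 libraries do not follow on from those of the other groups, and the labels name no batch. If these libraries were made or sequenced apart, a batch cannot be told apart from SN-011 treatment in any comparison with them. No WT cells received an antagonist, so an effect of either compound in cells with Trex1 was not measured. The study describes the libraries of a group as independent experiments, but the labels do not say whether these came from separate animals, and p-values measure only the spread between these libraries.

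The sensor cGAS binds double-stranded DNA in the cytosol and makes the cyclic dinucleotide cGAMP, which binds STING on the endoplasmic reticulum. STING then moves to the Golgi and recruits TBK1 and the related kinase IKKε (encoded by Ikbke), which activate the transcription factors IRF3 and NF-kB and so the type I interferon genes. Macrophages use this route against DNA viruses, and several of its components are themselves interferon-stimulated genes, so that transcript levels of the pathway can change once it is active. Cells also pass cGAMP to one another through transporters, channels and gap junctions, and the hydrolase ENPP1 destroys it outside the cell.

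The promoters of the 3 members that changed between Trex1-KO and WT are shown first, since interferon- and NF-kB-responsive motifs were searched in them. The sequences come from RefSeq windows on GRCm38.p6 that reach from 250 bases before to 50 bases after each annotated start, and they are written 5′ to 3′ on the gene's own strand. Searched on both strands were the interferon-stimulated response element core GAAANNGAAA, the IRF core AANNGAAA (which lies inside the former), the gamma-activated site TTCNNNGAA and the NF-kB site. Capitals mark a match, and Cgas, with no match to any of the 4 motifs, is shown for the 120 bases before its start.
Cgas, chr9:78443238-78443357, minus strand: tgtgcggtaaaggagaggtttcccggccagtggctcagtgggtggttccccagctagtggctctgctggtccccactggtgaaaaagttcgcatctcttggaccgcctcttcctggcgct
Ikbke, chr1:131279663-131279720, minus strand: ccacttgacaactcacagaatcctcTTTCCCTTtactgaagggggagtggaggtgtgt
Nlrx1, chr9:44268691-44268749, minus strand: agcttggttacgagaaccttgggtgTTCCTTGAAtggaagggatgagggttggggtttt
The Ikbke window held 1 IRF core, on the strand opposite to the gene, at positions -132 to -125 from the start. Nlrx1 had 2 overlapping windows that shared 1 gamma-activated site, at -125 to -117 from the nearer start. Of the other members, Enpp1 and Lrrc8c each held 1 NF-kB site, while Tbk1, Nlrc3 and Slc19a1 held none of the 4 motifs. Tmem173 had no window in the table. Across all 32851 mouse windows, 3.44% held the response element core, 23.9% the IRF core, 8.30% the gamma-activated site and 8.46% the NF-kB site, so a match in a single window is a description of its letters only.

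Total counts ran from 11845470 to 17284863 per library, so that 1 count was worth 0.0582 to 0.0849 CPM (counts relative to the TMM-scaled size of the library). Log2 CPM values correlated within groups with r between 0.990 and 0.991, and no pair agreed within counting noise. Trex1 had 0 counts in all 8 libraries, WT included, so the knockout could not be checked on it. All of its exonic bases lie within exons of Atrip on the same strand, and Atrip had 192 and 257 counts in WT and 639 to 1067 in the other 6 libraries. The 8 macrophage markers were expressed in all groups, with a summed level of 30092 to 32363 CPM, of which Lyz2 made up 20296 to 23079. Of these markers, 3 rose in Trex1-KO relative to WT, Fcgr1 at 2.20-fold, Cd68 at 1.35-fold and Adgre1 at 1.14-fold, and Fcgr1 fell to 0.708 of vehicle with H151 and 0.712 with SN-011. The 8 neutrophil markers summed to 8.68 to 9.64 CPM in WT but 64.5 to 98.6 CPM in the other 6 libraries, and 5 of the 5 tested rose in Trex1-KO. The 10 stromal and skeletal markers summed to 2168 to 2387 CPM in WT and 874 to 1239 CPM in the others, and 7 of the 9 tested fell in Trex1-KO. T or NK cell markers summed to at most 0.679 CPM, B cell markers to at most 5.18 CPM and dendritic cell markers to at most 2.96 CPM, although the dendritic cell marker Xcr1 rose in Trex1-KO, from 3 and 1 counts in WT to 16 and 15 (edgeR adjusted p = 0.00965). The stromal marker Col2a1, which fell to 0.204 of WT in Trex1-KO, was 1.40-fold higher with H151 than with vehicle (edgeR adjusted p = 0.0435). The neutrophil and stromal sums move with the genotype, and their part in the differences between Trex1-KO and WT below was not tested. In such bulk libraries, fewer cells of a type and less RNA per cell cannot be told apart.

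Per kilobase of exon, the kinases and STING were expressed most, and the other 6 genes lay well below them. In WT BMDMs the level was 33.9 ± 0.243 CPM per kb (SD, n = 2) for Tbk1, 28.7 ± 2.81 for Ikbke and 16.5 ± 1.25 for Tmem173. Enpp1 followed at 3.79 ± 0.347 CPM per kb and Lrrc8c at 3.01 ± 0.0396. Cgas stood at 2.66 ± 0.506 CPM per kb, Slc19a1 at 2.60 ± 0.0657, Nlrc3 at 2.43 ± 0.289 and Nlrx1 at 2.23 ± 0.382. From Lrrc8c downwards, each gene's libraries overlapped those of its neighbour in this order, whereas the first 4 genes were separated from each other. The highest mean was 15.2 times the lowest. In Trex1-KO BMDMs the level of Ikbke (38.2 ± 1.65 CPM per kb) equalled that of Tbk1 (38.0 ± 0.497) within the spread of the libraries. The length used was that of all annotated exons of a gene, 9018 bases for Ikbke and 3910 for Tbk1. The order between genes therefore depends on the annotation. Before division by length, the Trex1-KO means were 344 CPM for Ikbke and 149 CPM for Tbk1.

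**Figure D1:**
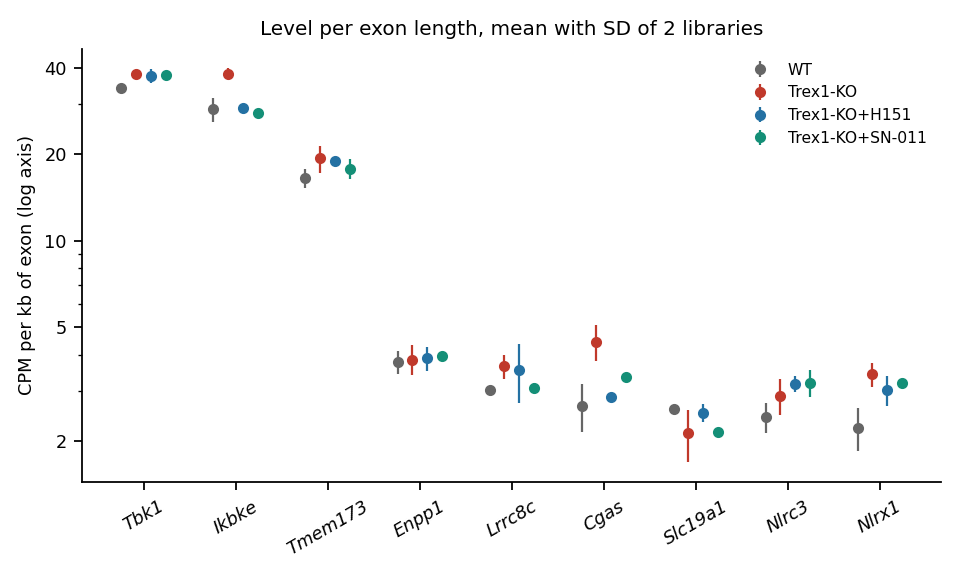
Mean level of each of the 9 genes in CPM per kb of exon (log axis) in the 4 groups, with bars of 1 SD over 2 libraries. Tbk1, Ikbke and Tmem173 lie above 16 CPM per kb in every group and the other 6 genes below 5.

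Cgas, the entry point of the pathway, was higher in Trex1-KO BMDMs. Its level was 12.4 and 9.49 CPM in WT BMDMs, 16.5 and 20.2 CPM in Trex1-KO, 11.9 and 11.7 CPM in Trex1-KO+H151, and 13.7 and 13.9 CPM in Trex1-KO+SN-011. Both Trex1-KO libraries lay above all of the other 6, the H151 libraries lay within the WT range, and the SN-011 libraries lay just above it. Cgas rose 1.68-fold in Trex1-KO relative to WT (95% CI 1.34 to 2.11, log2 fold change 0.75 ± 0.153 SE, edgeR quasi-likelihood test with Benjamini-Hochberg adjusted p = 0.00358). Without WT replicate 2, the library with the lowest Cgas level, the adjusted p was 0.0672. With H151 it fell to 0.641 of the vehicle level (95% CI 0.510 to 0.805, edgeR adjusted p = 0.0462). That call lay close to the threshold and was lost with scaling by total counts alone (adjusted p = 0.0568), in a fit of those 2 groups only (0.087), and without Trex1-KO replicate 2 (0.416), H151 replicate 1 (0.127), H151 replicate 2 (0.126), SN-011 replicate 1 (0.0911) or SN-011 replicate 2 (0.0885). With SN-011 the level was 0.75 of vehicle (95% CI 0.6 to 0.937), which did not pass the test (edgeR adjusted p = 0.246) although the libraries did not overlap. Cgas lies on chromosome 9 at 78430526 to 78443237 (GRCm38), 30.6 Mb from Trex1, and shares 4.87% of its exonic bases with the opposite-strand gene Gm8093.

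Neither the adaptor nor the first kinase passed the test in any comparison. Tmem173 was measured at 47.6 and 42.7 CPM in WT BMDMs, 57.0 and 48.9 CPM in Trex1-KO, 52.0 and 51.6 CPM in Trex1-KO+H151, and 51.4 and 46.0 CPM in Trex1-KO+SN-011. The Trex1-KO libraries lay above the WT libraries by a small margin, and the antagonist libraries overlapped those of Trex1-KO. The Trex1-KO level was 1.17 of the WT level (95% CI 1.02 to 1.35) with an edgeR adjusted p of 0.129, which became 0.0498 without Trex1-KO replicate 2. Against Trex1-KO, Tmem173 was at 0.978 of the vehicle level with H151 (95% CI 0.85 to 1.13, edgeR adjusted p = 0.981) and at 0.924 with SN-011 (95% CI 0.802 to 1.06, edgeR adjusted p = 0.678). Between them, the intervals for these compounds, both of which target the STING protein, reach from 0.802 to 1.13 of the vehicle level of its transcript.

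Tbk1, the kinase that phosphorylates STING and IRF3, was at 132 and 133 CPM in WT BMDMs, 147 and 150.0 CPM in Trex1-KO, 141 and 152 CPM in Trex1-KO+H151, and 145 and 150.0 CPM in Trex1-KO+SN-011. All 6 Trex1-KO libraries lay above both WT libraries, with no separation among the treatments. The Trex1-KO level was 1.12 of WT (95% CI 1.02 to 1.23, edgeR adjusted p = 0.092). The ratio to vehicle was 0.985 with H151 (95% CI 0.899 to 1.08) and 0.993 with SN-011 (95% CI 0.906 to 1.09).

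Ikbke, which encodes IKKε and is known as an inducible relative of Tbk1, rose in Trex1-KO and fell with both antagonists. Its level was 276 and 241 CPM in WT BMDMs, 355 and 334 CPM in Trex1-KO, 267 and 254 CPM in Trex1-KO+H151, and 248 and 253 CPM in Trex1-KO+SN-011. Both Trex1-KO libraries lay above every other library, and all 4 antagonist libraries lay between the WT libraries. Ikbke rose 1.33-fold in Trex1-KO (95% CI 1.20 to 1.48, log2 fold change 0.41 ± 0.0693 SE, edgeR adjusted p = 0.000848). It fell to 0.756 of vehicle with H151 (95% CI 0.681 to 0.838, edgeR adjusted p = 0.00493) and to 0.729 with SN-011 (95% CI 0.657 to 0.808, edgeR adjusted p = 0.0019). Against WT, the ratio was 1.01 with H151 (95% CI 0.907 to 1.12) and 0.97 with SN-011 (95% CI 0.874 to 1.08). Of these calls, only that for SN-011 was lost under any alternative, without SN-011 replicate 1 (adjusted p = 0.0584).

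Of the negative regulators, Nlrx1 rose and Nlrc3 did not pass the test. NLRX1 is a mitochondrial NLR protein that can hold STING away from TBK1. Nlrx1 was at 11.3 and 14.4 CPM in WT BMDMs, 18.3 and 21.0 CPM in Trex1-KO, 15.9 and 18.8 CPM in Trex1-KO+H151, and 18.7 and 18.1 CPM in Trex1-KO+SN-011. All 6 Trex1-KO libraries lay above both WT libraries, and the antagonist libraries overlapped the vehicle libraries. Nlrx1 rose 1.53-fold in Trex1-KO relative to WT (95% CI 1.24 to 1.90, log2 fold change 0.62 ± 0.144 SE, edgeR adjusted p = 0.00855), a call lost without WT replicate 1 (adjusted p = 0.125) or Trex1-KO replicate 2 (0.0697). Unlike for Ikbke, neither antagonist gave a call, with ratios to vehicle of 0.883 for H151 (95% CI 0.716 to 1.09, edgeR adjusted p = 0.829) and 0.935 for SN-011 (95% CI 0.76 to 1.15, edgeR adjusted p = 0.841), and whether the antagonist effects differ between Nlrx1 and Ikbke was not tested. Nlrx1 stayed above WT in SN-011-treated cells, at 1.43-fold (95% CI 1.16 to 1.78, edgeR adjusted p = 0.0313), but this was lost with DESeq2 (adjusted p = 0.0622), with scaling by total counts (0.0512), and without WT replicate 1 (0.306), SN-011 replicate 1 (0.178) or SN-011 replicate 2 (0.122). In H151-treated cells it was at 1.35-fold of WT (95% CI 1.09 to 1.69, edgeR adjusted p = 0.0724), which passed with the replicate number as a block (0.0377). Nlrx1 lies on chromosome 9 at 44252717 to 44268599, 64.8 Mb from Trex1, and 11.9% of its exonic bases are shared with the opposite-strand gene Gm10686, so part of its reads cannot be assigned if counting did not use strand, which is not stated.

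NLRC3 is a second NLR protein, which binds STING and TBK1 and hinders their association. Nlrc3 was at 15.8 and 18.6 CPM in WT BMDMs, 22.5 and 18.3 CPM in Trex1-KO, 21.4 and 23.4 CPM in Trex1-KO+H151, and 20.9 and 24.4 CPM in Trex1-KO+SN-011. One Trex1-KO library lay within the WT range, and the 4 antagonist libraries lay above both WT libraries. The ratio to WT was 1.18 in Trex1-KO (95% CI 0.963 to 1.45, edgeR adjusted p = 0.288), 1.30 with H151 (95% CI 1.06 to 1.60, edgeR adjusted p = 0.0921) and 1.31 with SN-011 (95% CI 1.07 to 1.60, edgeR adjusted p = 0.0888), the last of which passed in a fit of those 2 groups only (adjusted p = 0.0397). Of the 9 members, 6 have stretches of at least 100 bases that match other genes at 95% identity or more, genes of the same locus included. The longest was 600 bases in Nlrx1 (21 other genes matched), 202 in Cgas (21), 190 in Nlrc3 (38), 149 in Tbk1 (374), 146 in Enpp1 (64) and 117 in Ikbke (1). Those of Nlrx1, Cgas and Ikbke are to Gm10686, Gm8093 and Gm28914, which overlap these members on the opposite strand and are not copies elsewhere. Counts carry an uncertainty from the matches that do lie elsewhere. Tmem173, Slc19a1 and Lrrc8c had no such stretch.

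Of the members, none of the 3 that break down or carry cGAMP (Enpp1, Slc19a1 and Lrrc8c) passed the test in any comparison. ENPP1 is the extracellular hydrolase of cGAMP. Enpp1 was at 41.4 and 36.3 CPM in WT BMDMs, 42.9 and 36.2 CPM in Trex1-KO, 42.7 and 37.1 CPM in Trex1-KO+H151, and 39.9 and 41.5 CPM in Trex1-KO+SN-011. No group stood apart from the others, and the interval of the ratio of Trex1-KO to WT ran from 0.866 to 1.19 (edgeR adjusted p = 0.923).

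SLC19A1, the reduced folate carrier, also imports cyclic dinucleotides. Slc19a1 was at 12.3 and 11.9 CPM in WT BMDMs, 8.45 and 11.3 CPM in Trex1-KO, 11.1 and 12.3 CPM in Trex1-KO+H151, and 10.2 and 9.85 CPM in Trex1-KO+SN-011. It was the only member with both Trex1-KO libraries below both WT libraries, at a ratio of 0.824 (95% CI 0.649 to 1.05, edgeR adjusted p = 0.289). LRRC8C forms part of a volume-regulated anion channel that conducts cGAMP. Lrrc8c was at 22.8 and 23.2 CPM in WT BMDMs, 29.9 and 26.0 CPM in Trex1-KO, 31.5 and 22.7 CPM in Trex1-KO+H151, and 24.1 and 22.8 CPM in Trex1-KO+SN-011. Its H151 libraries lay farther apart than those of any other group, the Trex1-KO libraries lay above WT, and the ratio of Trex1-KO to WT was 1.21 (95% CI 0.986 to 1.49, edgeR adjusted p = 0.217). Against WT, H151-treated cells were not called for Lrrc8c (edgeR adjusted p = 0.354), but were without H151 replicate 2, its lower library (0.0326).

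**Figure D2:**
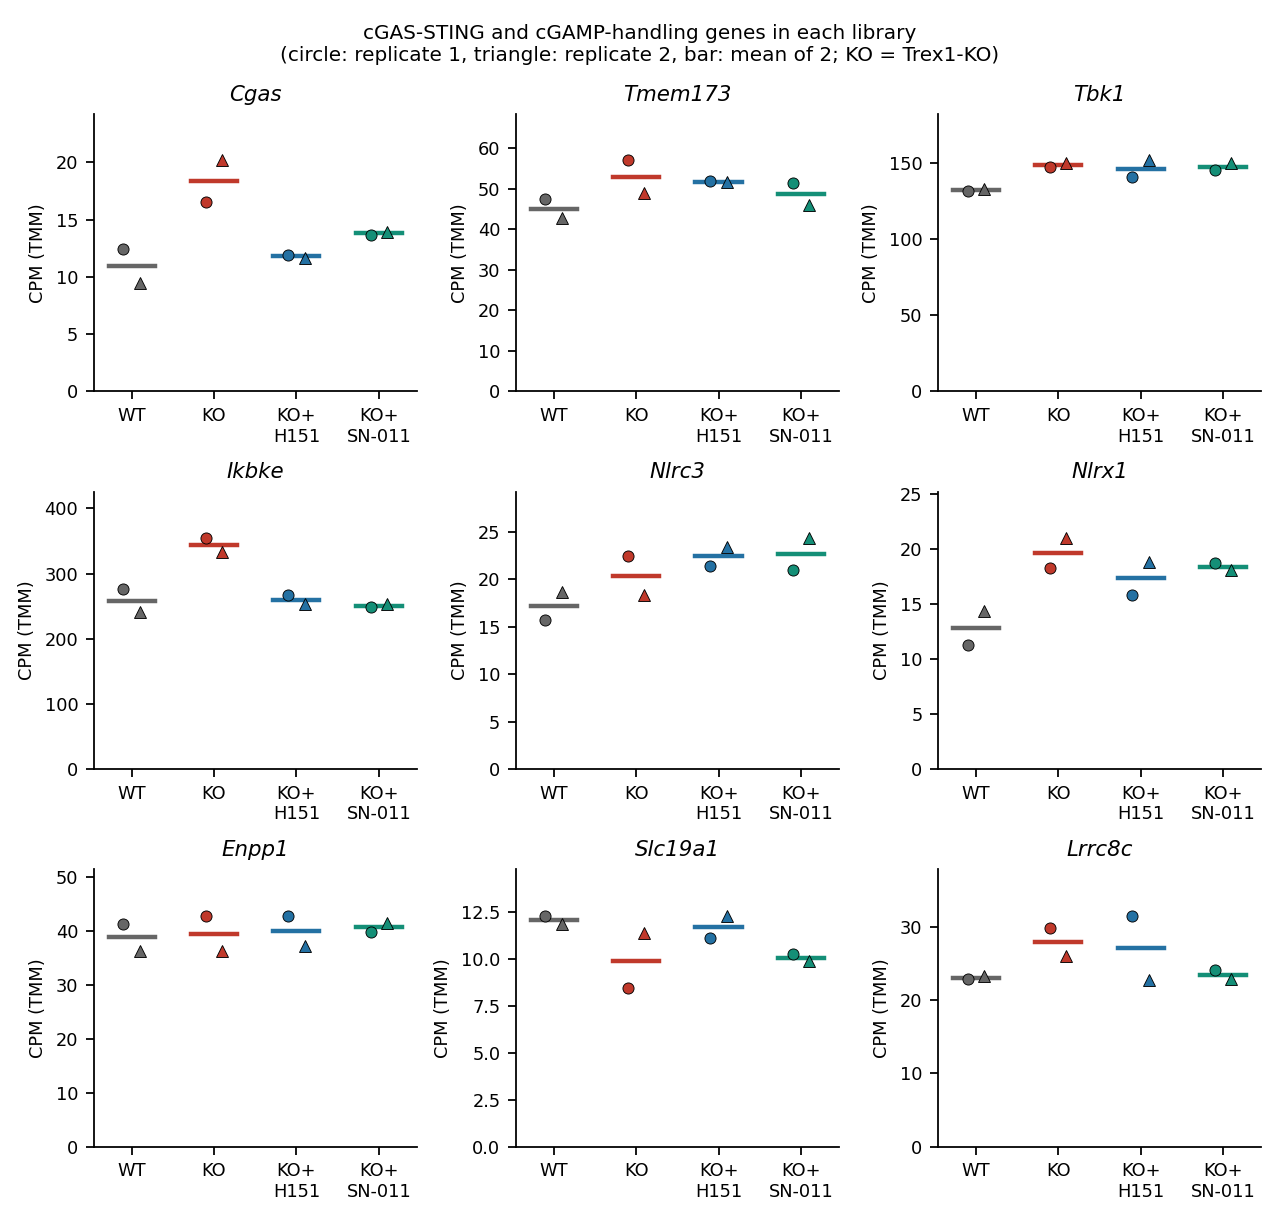
TMM-scaled CPM of the 9 genes in each of the 8 libraries (circles replicate 1, triangles replicate 2, bars the mean of 2), with axes from 0. Cgas and Ikbke stand highest in Trex1-KO and lower with both antagonists, while Nlrx1 and Tbk1 stay above WT in all 6 Trex1-KO libraries. Cgas with SN-011 against vehicle, Nlrx1 with H151 against WT and Tbk1 in any comparison did not pass the test.

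Across the 9 genes, 3 rose and 0 fell in Trex1-KO relative to WT, in a comparison that called 16.4% of all genes tested and 9.27% as higher. The median log2 fold change of the 9 was 0.24, against -0.002 over all genes, and the libraries of the groups did not overlap for 7 of them, as for 56.1% of all genes. With H151, 2 fell and 0 rose relative to Trex1-KO, where 2.23% of all genes were called and 1.84% as lower. With SN-011, 1 fell, where 2.33% of all genes were called and 2.22% as lower. The median over the 9 was -0.03 with H151 and -0.10 with SN-011, beside 0.001 and 0.009 over all genes. Both antagonist comparisons and the comparison with WT share the Trex1-KO libraries.

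None of the 9 genes passed the test between the compounds. Comparing SN-011 with H151 directly, edgeR called none of them, DESeq2 none and limma-voom none, and edgeR called 0.158% of all genes. An unadjusted edgeR p under 0.05 was found for 0 of them and for 1300 of the 14591 genes tested. The largest difference was for Cgas, 0.23 higher with SN-011 on the log2 scale (95% CI -0.11 to 0.56, edgeR adjusted p = 0.704), an interval that still allows a 1.48-fold difference. For Ikbke the interval was narrower, from -0.20 to 0.10 around -0.05 (edgeR adjusted p = 0.862). Relative to WT, 0 members were called in H151-treated cells, where 11.8% of all genes were called, and neither DESeq2 nor limma-voom called any. An unadjusted edgeR p under 0.05 was found for 3 members and for 3531 of the 14591 genes tested. Under other alternatives 1 was called, Nlrx1 with the replicate number as a block (adjusted p = 0.0377) and Lrrc8c without H151 replicate 2 (0.0326). In SN-011-treated cells 1 member, Nlrx1, was called higher, where 11.7% of all genes were called and 6.18% as higher.

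**Figure D3:**
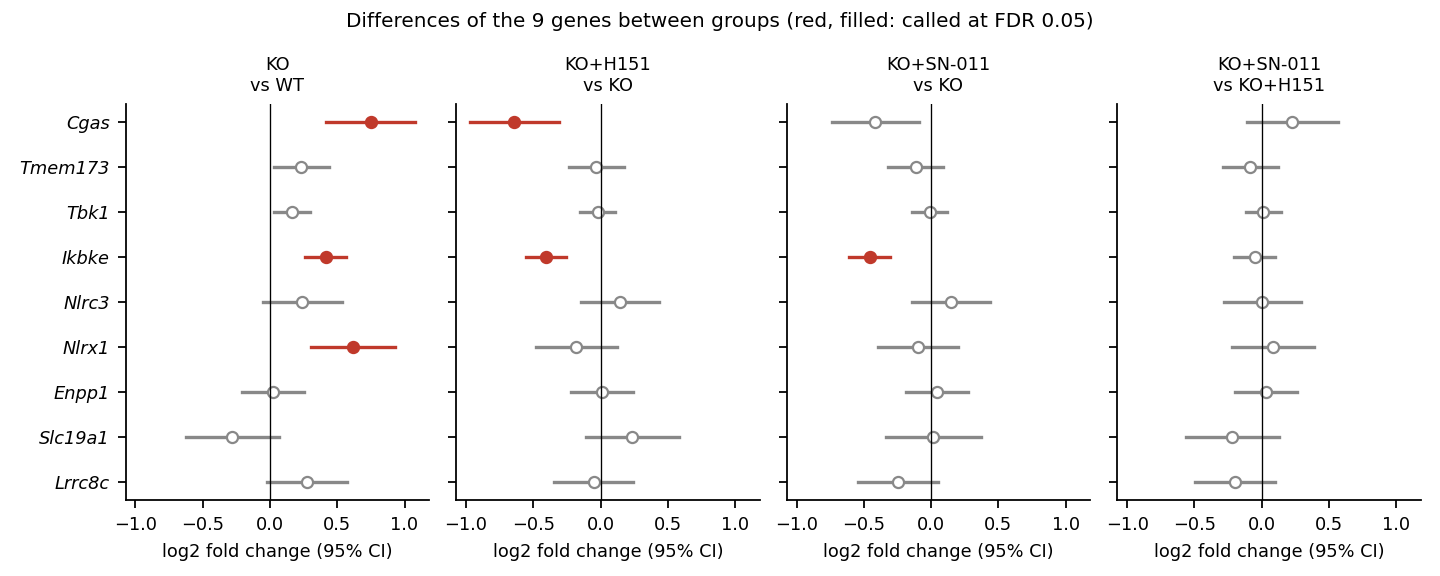
Log2 fold change of each of the 9 genes with its 95% confidence interval from the edgeR fit, in 4 comparisons, with filled red points for genes called at an FDR of 0.05. The 3 calls against WT are Cgas, Ikbke and Nlrx1, the H151 panel calls Cgas and Ikbke, the SN-011 panel calls Ikbke, and the last panel calls none.

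The other genes of the pathway were taken from 4 lists by role, 77 genes of which 71 were tested, and 9 rose and 3 fell in Trex1-KO relative to WT. These 12 are 16.9% of the tested list genes, near the 16.4% called over all genes. Their median log2 fold change was 0.05, against -0.002 over all genes. Among 15 tested cofactors and regulators of cGAS, 1 rose (6.67%, beside 16.4% over all genes). This was Trim14, which recruits a deubiquitinase to cGAS, which went from 51.4 and 50.4 CPM to 82.5 and 78.5 CPM, or 1.58-fold (edgeR adjusted p = 1.14e-05). Trim14 shares 38.0% of its exonic bases with opposite-strand genes, mainly Nans.

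Among 28 tested genes of STING trafficking and turnover, 4 rose and 1 fell (17.9%, near the 16.4% over all genes). Usp18, an interferon-stimulated gene whose product recruits a deubiquitinase to STING, rose 6.19-fold, from 17.2 and 14.3 CPM to 97.6 and 96.6 CPM (edgeR adjusted p = 5.72e-08). Trim30a, an interferon-inducible ubiquitin ligase that promotes STING degradation, rose 2.45-fold, from 170.0 and 145 CPM to 404 and 369.9 CPM (edgeR adjusted p = 8.08e-08). It matches Trim30d at 97.7% identity over 301 bases. Both of its RefSeq promoter windows held the response element core, which the searched promoters of 8 members lacked. The match at -36 to -27 from the start, on the opposite strand, is shown in capitals. The match in the other window lay after its start, at 2 to 11. Of 61 list genes with a window, 2 held this core, beside 3.99% of all genes with a window, so these matches describe letters only. The other was Kat5, at 1.01 of WT (edgeR adjusted p = 0.916), while the window of Irf7, which rose as described next, held none of the 4 motifs. Usp18 and Trim14 had no window.
Trim30a, chr7:104465195-104465254, minus strand: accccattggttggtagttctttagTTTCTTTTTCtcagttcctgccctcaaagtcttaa
The other calls of this list were smaller, with Trim56 at 1.32-fold, Sqstm1 at 1.16-fold and Insig1, a sterol-responsive protein of the endoplasmic reticulum membrane, at 0.80 of WT (these 3 were named after their values were seen). The Sqstm1 call was lost with scaling by total counts (adjusted p = 0.176) and without any 1 of both WT, both Trex1-KO or both SN-011 libraries (0.0609 to 0.264), and the Insig1 call without WT replicate 1 (0.122) or Trex1-KO replicate 2 (0.117).

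Among 18 tested TBK1 adaptors and downstream factors, 4 rose and 0 fell (22.2%, beside 16.4% over all genes). Irf7, the interferon-inducible factor that amplifies interferon transcription, rose 6.14-fold, from 83.6 and 66.9 CPM to 479 and 445 CPM (edgeR adjusted p = 7.16e-09). Tank, a scaffold of TBK1 and IKKε, rose 1.52-fold, from 44.3 and 42.8 CPM to 64.5 and 67.9 CPM (edgeR adjusted p = 4.97e-05). Azi2, another TBK1 adaptor, at 1.35-fold and Relb, a subunit of noncanonical NF-kB, at 1.27-fold completed the calls and were named here after their values were seen. The Relb call was lost with scaling by total counts (adjusted p = 0.0786) and without WT replicate 2 (0.314), Trex1-KO replicate 1 (0.105), Trex1-KO replicate 2 (0.0621) or SN-011 replicate 2 (0.0509). Among 10 tested genes of cGAMP transport and breakdown, 0 rose and 2 fell (beside 16.4% called over all genes), both gap junction subunits. Gjb2 (connexin 26) went from 7.51 and 5.96 CPM to 2.41 and 1.85 CPM, or 0.316 of WT (edgeR adjusted p = 0.00046). Gja1 (connexin 43) went from 26.1 and 28.1 CPM to 15.8 and 14.2 CPM, or 0.554 of WT (edgeR adjusted p = 0.000223). The stromal and skeletal markers given above fell in the same libraries, and their part in the fall of Gjb2 and Gja1 was not tested.

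**Figure D4:**
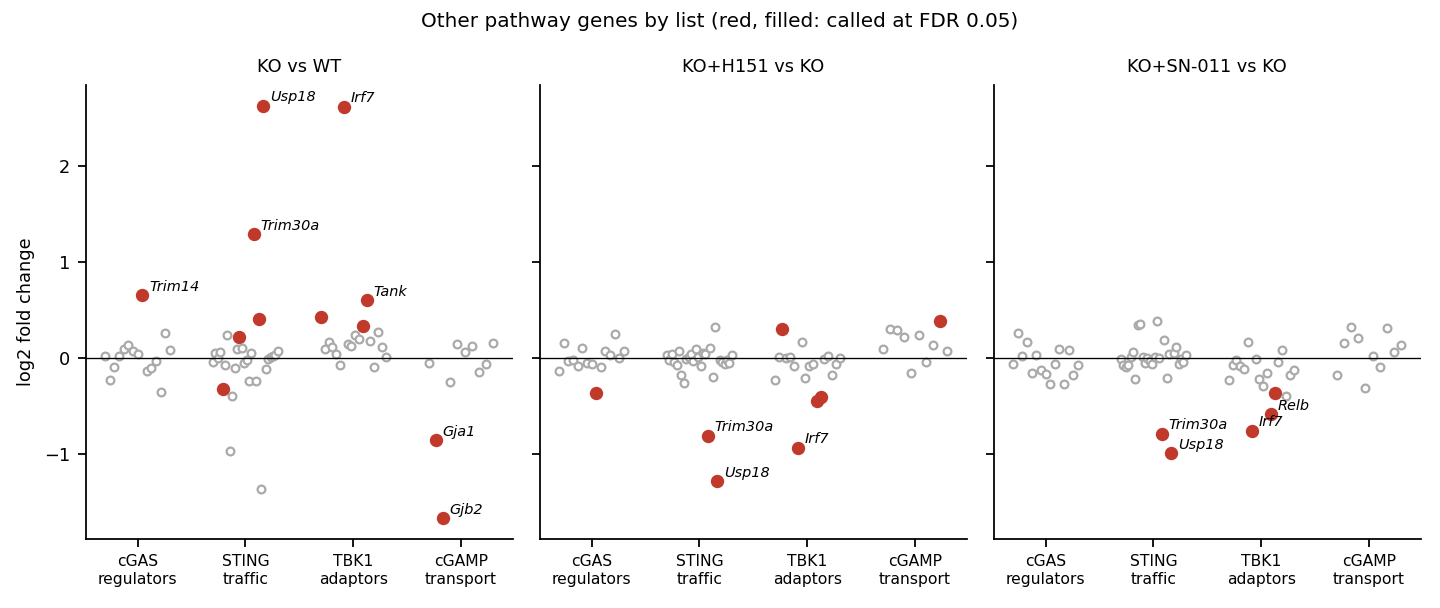
Log2 fold change of the tested genes of the 4 pathway lists (15, 28, 18 and 10 genes, left to right in each panel) in 3 comparisons, with filled red points for calls at an FDR of 0.05 and symbols where the change exceeds 0.55. Among called genes, Usp18, Irf7 and Trim30a lead the rises in Trex1-KO and the falls with either antagonist, and Gjb2 and Gja1 are the largest 2 of the 3 called falls in Trex1-KO, where open points that did not pass the test reach as low as Usp13 at -1.36.

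With H151, 6 of the 71 genes fell and 2 rose relative to Trex1-KO, or 11.3% beside 2.23% over all genes, with a median log2 fold change of -0.01. Usp18 fell to 0.412 of vehicle, at 31.4 and 48.2 CPM (edgeR adjusted p = 0.000116), and Trim30a to 0.572, at 211 and 231 CPM (edgeR adjusted p = 3.65e-05). Irf7 fell to 0.525, at 211 and 274 CPM (edgeR adjusted p = 0.000324). Smaller falls were Relb at 0.734 of vehicle (edgeR adjusted p = 0.0226), Tank at 0.758 (0.00726) and Trim14 at 0.780 (0.00915). The genes that rose were Slc46a3, which is known as a lysosomal transporter, at 1.31-fold (edgeR adjusted p = 0.00318) and Dtx4, a ubiquitin ligase that degrades TBK1 (named after its values were seen), at 1.24-fold (edgeR adjusted p = 0.0239). The calls for Usp18, Trim30a, Irf7 and Slc46a3 held under every alternative, whereas those for Relb (without any 1 Trex1-KO, H151 or SN-011 library, adjusted p 0.0501 to 0.0968), Tank (without Trex1-KO replicate 2, 0.0888) and Trim14 (without Trex1-KO replicate 1, 0.0978, or with those 2 groups only, 0.0571) did not. The Dtx4 call was lost with DESeq2 (adjusted p = 0.0541), with those 2 groups only (0.0923), and without Trex1-KO replicate 1 (0.0898), Trex1-KO replicate 2 (0.197), H151 replicate 1 (0.134) or SN-011 replicate 1 (0.0502).

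With SN-011, 5 of the 71 genes fell and 0 rose relative to Trex1-KO, or 7.04% beside 2.33% over all genes, with a median log2 fold change of -0.04. They were Usp18 at 0.503 of vehicle (edgeR adjusted p = 0.00092), Irf7 at 0.593 (0.002), Trim30a at 0.581 (6.69e-05), Relb at 0.668 (0.0034) and Tank at 0.780 (0.0158). Trim14 was at 0.832 of vehicle (edgeR adjusted p = 0.0583), which passed with a stricter filter (0.0487), with the replicate number as a block (0.0495) and without H151 replicate 1 (0.0469) or 2 (0.0404). The call was lost for Irf7 without SN-011 replicate 1 (adjusted p = 0.0793), for Relb without SN-011 replicate 1 (0.0722) or 2 (0.0545), and for Tank without any 1 Trex1-KO or SN-011 library (0.0527 to 0.18). Comparing SN-011 with H151 directly, edgeR and limma-voom called none of the 71 genes and DESeq2 called 1. In edgeR 8 of the 71 had an unadjusted p under 0.05, beside 1300 of all 14591 genes tested. Without H151 replicate 2, 5 passed, among them Usp18 (adjusted p = 0.00839), Dtx4 (0.0348) and Slc46a3 (0.0111). Slc46a3 was at 197 and 181 CPM with H151 and 155 and 145 CPM with SN-011, or 0.795 of the H151 level, with an edgeR adjusted p of 0.0787, and it passed with DESeq2 (adjusted p = 0.0273), with the replicate block (0.0371) and with genes of at least 1 count kept (0.000862). Dtx4 was at 91.6 and 87.9 CPM with H151 and 69.7 and 73.8 CPM with SN-011, or 0.799 of the H151 level (edgeR adjusted p = 0.122, and 0.0162 with genes of at least 1 count kept).

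For genes called higher in Trex1-KO, the difference from WT was also read after treatment. On the log2 scale, Ikbke differed from WT by 0.41 with vehicle, 0.01 with H151 and -0.04 with SN-011. Cgas differed by 0.75 with vehicle, 0.11 with H151 and 0.33 with SN-011, and neither antagonist group was called against WT for these genes. Nlrx1 was 0.62 above WT with vehicle, 0.44 with H151 and 0.52 with SN-011. Irf7 stood 2.62 above WT with vehicle, 1.69 with H151 and 1.87 with SN-011, and Usp18 stood 2.63, 1.35 and 1.64 above WT in the same order. Irf7 and Usp18 were called higher than WT in both antagonist groups (edgeR adjusted p at most 9.16e-05). These comparisons share the WT libraries, and differences between genes in how much remained were not tested. The genes were those called higher in Trex1-KO, a choice that favours high vehicle values. Some drop from vehicle to antagonist can follow from that choice alone.

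**Figure D5:**
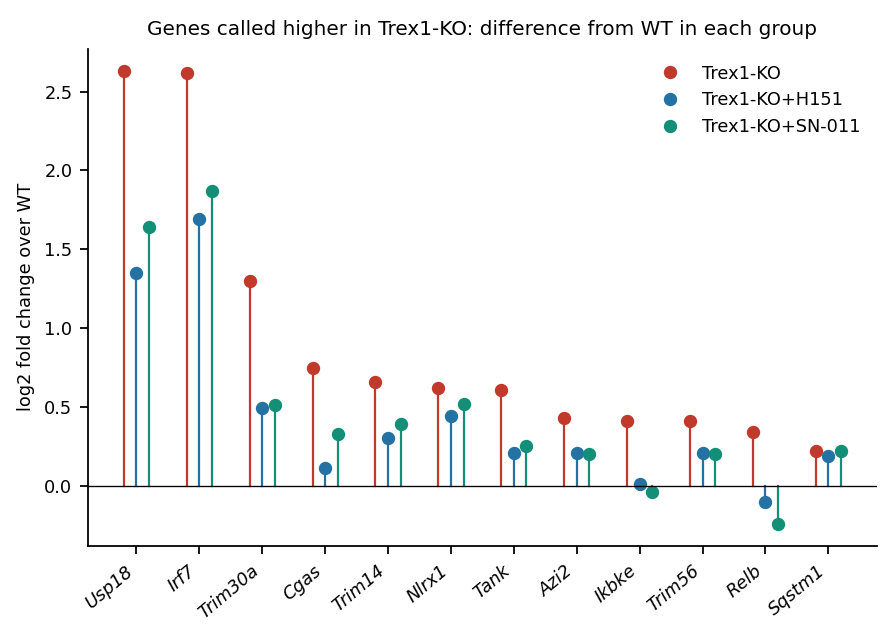
Log2 fold change over WT in Trex1-KO, Trex1-KO+H151 and Trex1-KO+SN-011 for the 12 genes called higher in Trex1-KO, ordered by the vehicle value. Usp18 and Irf7 stay above 1 in all 3 groups, whereas Ikbke lies within 0.05 of WT with either antagonist and Relb lies below WT.

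Among 10657 genes compared, those whose log2 CPM followed each changed member most closely over the 8 libraries were as follows. For Cgas they were Pgap2 (r = 0.972), Rap2c (r = 0.971) and Nfkbiz (r = 0.965). For Ikbke they were Itga4 (r = 0.994), Cflar (r = 0.988) and Apobec3 (r = 0.988). For Nlrx1 they were H2-M3 (r = 0.977), Hsd17b11 (r = 0.974) and Dgkd (r = 0.973). The 8 points fall into 4 groups that share a genotype or treatment, and these are the highest of many values, so they describe likeness in these libraries only.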

How the data were processed

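Polyadenylated RNA of BMDMs was sequenced in 2 libraries for each of 4 groups. Per the study's methods, the authors trimmed read pairs with Trimmomatic, aligned them with hisat2 and counted uniquely mapped pairs per gene with featureCounts, while the submitters' processing notes list HISAT2, HTSeq and mm10. The deposited values are raw counts. The methods describe the library preparation as strand-specific, but tool versions, annotation and whether counting used strand are not given in the sources used here. All 8 libraries entered 1 edgeR 4.0.16 quasi-likelihood fit (R 4.3.3) with TMM factors, filterByExpr (minimum count 10, minimum total 15), two-sided tests and Benjamini-Hochberg adjustment over 14591 genes, and genes under 0.05 are said to be called. SE and 95% intervals derive from the F statistic and its degrees of freedom. The common biological coefficient of variation was 0.0656. The fit was tested on simulated counts. Alternatives used DESeq2 1.42.0, limma-voom (limma 3.58.1), other scalings and filters, a replicate block, only the 2 groups compared, and leaving out each library. Positions, exon lengths and overlaps come from GENCODE M21 (GRCm38). The members, lists and alternatives were chosen with earlier results of these data known. Named pathway genes are up to 2 called genes with the largest change per list and comparison, and Trim56, Sqstm1, Insig1, Azi2, Relb in Trex1-KO, Dtx4, Kat5 and Usp13 were named after their values were seen. A gene named in 1 comparison was also followed in the others. Reads carried no molecular identifiers, so the worth of 1 count describes counting error only.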

Additional observations from a re-analysis of the deposited data

How the results depend on the processing

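No called log2 fold change of a member or named pathway gene changed sign under any alternative. Differences of the changed members that were not called did so for Ikbke with H151 against WT in 6 of 16 alternatives (-0.10 to 0.10), and in 1 of 16 each for Ikbke with SN-011 against WT, Cgas with H151 against WT, and Nlrx1 in SN-011 against Trex1-KO and against H151. Counts of called members moved from 2 to 1 for H151 against Trex1-KO with total-count scaling and with only the 2 groups, from 0 to 1 for H151 against WT with the replicate block, and from 1 to 0 for SN-011 against WT with total-count scaling and with DESeq2 and to 2 with only the 2 groups. With genes of at least 1 count kept, all-gene calls rose from 325 to 525 for H151, from 340 to 679 for SN-011 and from 23 to 266 for SN-011 against H151, where pathway-list calls rose from 0 to 3. For SN-011 against H151, DESeq2 called 38 genes and 1 list gene. The cause was not tested for any of these. Leaving out 1 library gave 2 to 3 members for Trex1-KO against WT, 1 to 2 for H151, 0 to 1 for SN-011, 0 for SN-011 against H151, 0 to 1 for H151 against WT and 0 to 1 for SN-011 against WT. All-gene calls then ran from 1556 to 2651, 231 to 357, 131 to 493, 2 to 291, 971 to 1790 and 909 to 1933 in that order, and pathway-list calls from 10 to 14, 5 to 8, 2 to 7, 0 to 5, 7 to 13 and 6 to 10. The all-gene count moved by over 1.5 times without either WT library for Trex1-KO against WT (1556 and 1583) and H151 against WT (971 and 1091), without Trex1-KO replicate 1 (198) or SN-011 replicate 1 or 2 (131 and 186) for SN-011, without H151 replicate 2 (291) or SN-011 replicate 1 or 2 (2 and 11) for SN-011 against H151, and without WT replicate 1 (956) or SN-011 replicate 1 or 2 (1055 and 909) for SN-011 against WT. The pathway-list count did so without either Trex1-KO library for H151 (5), SN-011 replicate 1 or 2 for SN-011 (2 and 3), H151 replicate 2 for SN-011 against H151 (5), either WT library for H151 against WT (7), and WT replicate 1 or either SN-011 library for SN-011 against WT (6).

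Titles give groups the same replicate numbers, and the labels do not say what a number stands for. Deviations of same-numbered libraries correlated at 0.194 between Trex1-KO and Trex1-KO+H151, and between -0.016 and 0.061 for the other pairs. These values do not settle whether the numbers pair the libraries. The main fit used no pairing, and the replicate block is given as an alternative. With the replicate block, SN-011 against H151 gave 44 calls over all genes and 1 pathway-list gene, and Nlrx1 in H151-treated cells passed against WT (adjusted p = 0.0377). With 2 libraries a group, the 95% intervals of the members not called in Trex1-KO reached up to 1.49-fold of WT for Lrrc8c and down to 0.649 for Slc19a1.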
